A study of Homo sapiens with 32 samples.

Results

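Tropomyosins and the smaller proteins that bind contractile actin filaments were followed in 2 lung cancer cell lines in which SMARCA2 had been knocked down and either SMARCA2 or its paralog SMARCA4 put back. The set was 10 listed genes, taken wherever a probe set of the array carried the gene's symbol, with the brightest probe set standing for the gene. Of the 10, 9 had such a probe set (38 probe sets in all) and all 9 passed the filter on dim genes; FLNA, which encodes the crosslinker filamin A, was not analysed here. The 9 genes are TPM1, TPM2 and TPM4 (tropomyosins), ACTN1 (alpha-actinin 1), TAGLN (transgelin), CNN2 and CNN3 (calponins), CALD1 (caldesmon) and MYL9 (a myosin regulatory light chain), among 14695 genes tested of 19775 measured.

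RNA came from H1299 and A549 cells, established human non-small-cell lung cancer lines that both lack functional SMARCA4, so that SMARCA2 is the remaining ATPase of their SWI/SNF chromatin remodelling complexes. Every group was a stable isogenic line, grown untreated in serum-containing medium, that carried a short hairpin RNA, either S2sh7 (against SMARCA2) or shLuc (against luciferase, the control), together with a cDNA. In H1299 the cDNA was SMARCA2 in wild-type form (WT), with a mutated bromodomain (BRD) or with a dead ATPase (ATPdead), or else GFP as control, which made 8 groups of 3 arrays, labelled as biological replicates and as batch 1. In A549 the cDNA was SMARCA4 WT, BRD or ATPdead, or GFP, which made 8 groups of 1 array, labelled as batch 2. The bromodomain binds acetylated lysine on histones, and the ATPase drives nucleosome movement. The labels do not say how many clones a line came from or whether replicates were separate cultures, so every p-value below reflects spread among the arrays at hand, which may be technical, and the number of arrays limits the precision.

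Tropomyosins are coiled-coil dimers that lie end to end along actin filaments and govern which partners, among them myosin and cofilin, can reach the filament. Alpha-actinin and filamin crosslink filaments, transgelin and the calponins bundle and stabilise them, caldesmon restrains the myosin motor, and phosphorylation of the regulatory light chain switches that motor on. Many of these genes are transcribed through serum response factor (SRF), which binds a DNA element called the CArG box together with the actin-sensing cofactors MRTFA and MRTFB, and in carcinoma cells their products build stress fibres and the contractile cortex.

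RefSeq promoter windows, each from 250 bases before to 50 bases after an annotated start (GRCh38.p14), were held for 8 of the 10 genes, 18 windows in all; MYL9 and TAGLN had no entry. A CArG box on either strand was found in 4 of the 18 windows, those of TPM4, ACTN1, CNN2 and FLNA, against 1.29% of 35116 windows of the same length in all genes. The element recognised by TEAD factors (MCAT, GGAATG) was in 4 windows of 3 genes (ACTN1, CNN3 and CALD1), against 14.0% of all windows, and the AP-1 element (TGANTCA) was in 1, of CALD1, against 7.71%. None of these matches says that a factor is bound there. Sequences before the start follow for a pair of genes with a CArG box in capitals and for TPM1. TPM1 was the member with the largest fall in H1299 cells carrying GFP, and its only window held none of the 3 elements. That window belongs to a start inside the gene, which begins at chr15:63042747. The sequence before the gene's first base was not searched, so these elements may lie there. The CNN2 window (chr19:1026358-1026607, plus strand) and the first TPM4 window (chr19:16067288-16067537, plus strand) begin the comparison, then the TPM1 window (chr15:63048239-63048488, plus strand) and the 30 bases around the CArG box of the third ACTN1 window (chr14:68977718-68977747, minus strand).
CNN2: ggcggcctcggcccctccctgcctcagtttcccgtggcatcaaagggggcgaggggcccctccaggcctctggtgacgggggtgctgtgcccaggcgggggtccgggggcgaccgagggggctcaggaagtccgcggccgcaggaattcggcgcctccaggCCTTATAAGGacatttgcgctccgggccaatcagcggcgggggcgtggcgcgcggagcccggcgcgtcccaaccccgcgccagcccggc
TPM4: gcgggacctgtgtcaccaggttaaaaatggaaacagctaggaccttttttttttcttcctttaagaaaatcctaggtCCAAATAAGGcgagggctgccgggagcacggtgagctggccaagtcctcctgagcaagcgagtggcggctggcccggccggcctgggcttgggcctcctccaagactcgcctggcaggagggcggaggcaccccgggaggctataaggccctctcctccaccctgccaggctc
TPM1: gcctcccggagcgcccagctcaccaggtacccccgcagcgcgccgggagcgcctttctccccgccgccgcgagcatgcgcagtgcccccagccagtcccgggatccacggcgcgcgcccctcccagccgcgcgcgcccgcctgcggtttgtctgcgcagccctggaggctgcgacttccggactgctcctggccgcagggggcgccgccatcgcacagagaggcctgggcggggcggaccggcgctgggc
ACTN1: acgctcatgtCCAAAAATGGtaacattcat

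The hairpin lowered its target in both lines. A SMARCA2 probe set that did not follow the cDNA averaged 28.8 in S2sh7 and 70.6 in shLuc H1299 cells with GFP, and was 32.4 and 292 on the single arrays in A549. These and all levels below are deposited RMA intensities, a linear scale on which levels of different genes cannot be set against each other. SMARCA4 transcript was lower under S2sh7 in H1299 with GFP (log2 difference -0.60, adjusted p = 7.46e-07) and higher in A549 (0.23, adjusted p = 0.0395, limma). Probe sets that follow the cDNA did not stay level between hairpins. In H1299 one that follows SMARCA2 cDNA averaged 76.7 under S2sh7 and 121 under shLuc with WT. It gave 67.1 and 107 with BRD, and 56.7 and 109 with ATPdead, beside 25.7 and 42.6 with GFP. Because it was lower under S2sh7 with GFP too, endogenous and cDNA transcript cannot be told apart in it. One that follows SMARCA4 cDNA had 236 and 99.8 with WT, 240 and 121 with BRD, and 151 and 116 with ATPdead in A549. The part of that imbalance in comparisons of hairpin by cDNA was not tested. Log2 values of replicate arrays in H1299 correlated at 0.997 to 0.998, and no H1299 array stood apart by this measure. A549 had no replicate arrays, so its arrays could not be checked in this way. Levels of the 2 lines come from different batches, so line and batch cannot be told apart and each line was tested alone.

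In H1299 cells, knockdown of SMARCA2 was followed by lower TPM1, TPM4, ACTN1 and CNN2 whichever cDNA the cells carried. With GFP, 7 of the 9 genes fell (limma, Benjamini-Hochberg adjusted p under 0.05 over all 14695 genes), against 16.1% of all genes called lower, and none rose, against 13.6% of all genes called higher. After repeated quantile normalization that balance over all genes turned, to 2100 lower and 2547 higher (2360 and 1999 without it). The median log2 change of the 9 was -0.29, beside 0.01 over all genes tested. The genes were chosen with earlier results of these data known, so their counts beside all genes describe them and are no independent test. In these cultures fewer cells of a type and less RNA per cell cannot be told apart.

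TPM1, which gives rise to several muscle and non-muscle tropomyosin isoforms, had intensities of 3589, 3620 and 3434 on the S2sh7 arrays and 5893, 5575 and 5640 on the shLuc arrays of GFP cells. The highest S2sh7 array lay far below the lowest shLuc array, so the groups did not overlap. The fitted log2 difference was -0.68 (SE 0.035, adjusted p = 1.44e-11), or 62.2% of the shLuc level.

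With WT SMARCA2 the same gene had 4460, 4204 and 4172 under S2sh7 and 6302, 6096 and 6108 under shLuc. With BRD it had 4356, 4090 and 4400 under S2sh7 and 6005, 5768 and 5997 under shLuc. With ATPdead it had 3529, 3599 and 3611 under S2sh7 and 5955, 5936 and 5701 under shLuc. All 12 S2sh7 arrays were therefore below all 12 shLuc arrays. The TPM1 level under S2sh7 was 69.3% of that under shLuc with WT (adjusted p = 1.31e-09), 72.3% with BRD (adjusted p = 7.29e-09) and 61.1% with ATPdead (adjusted p = 1.16e-11), each by limma.

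**Figure D1:**
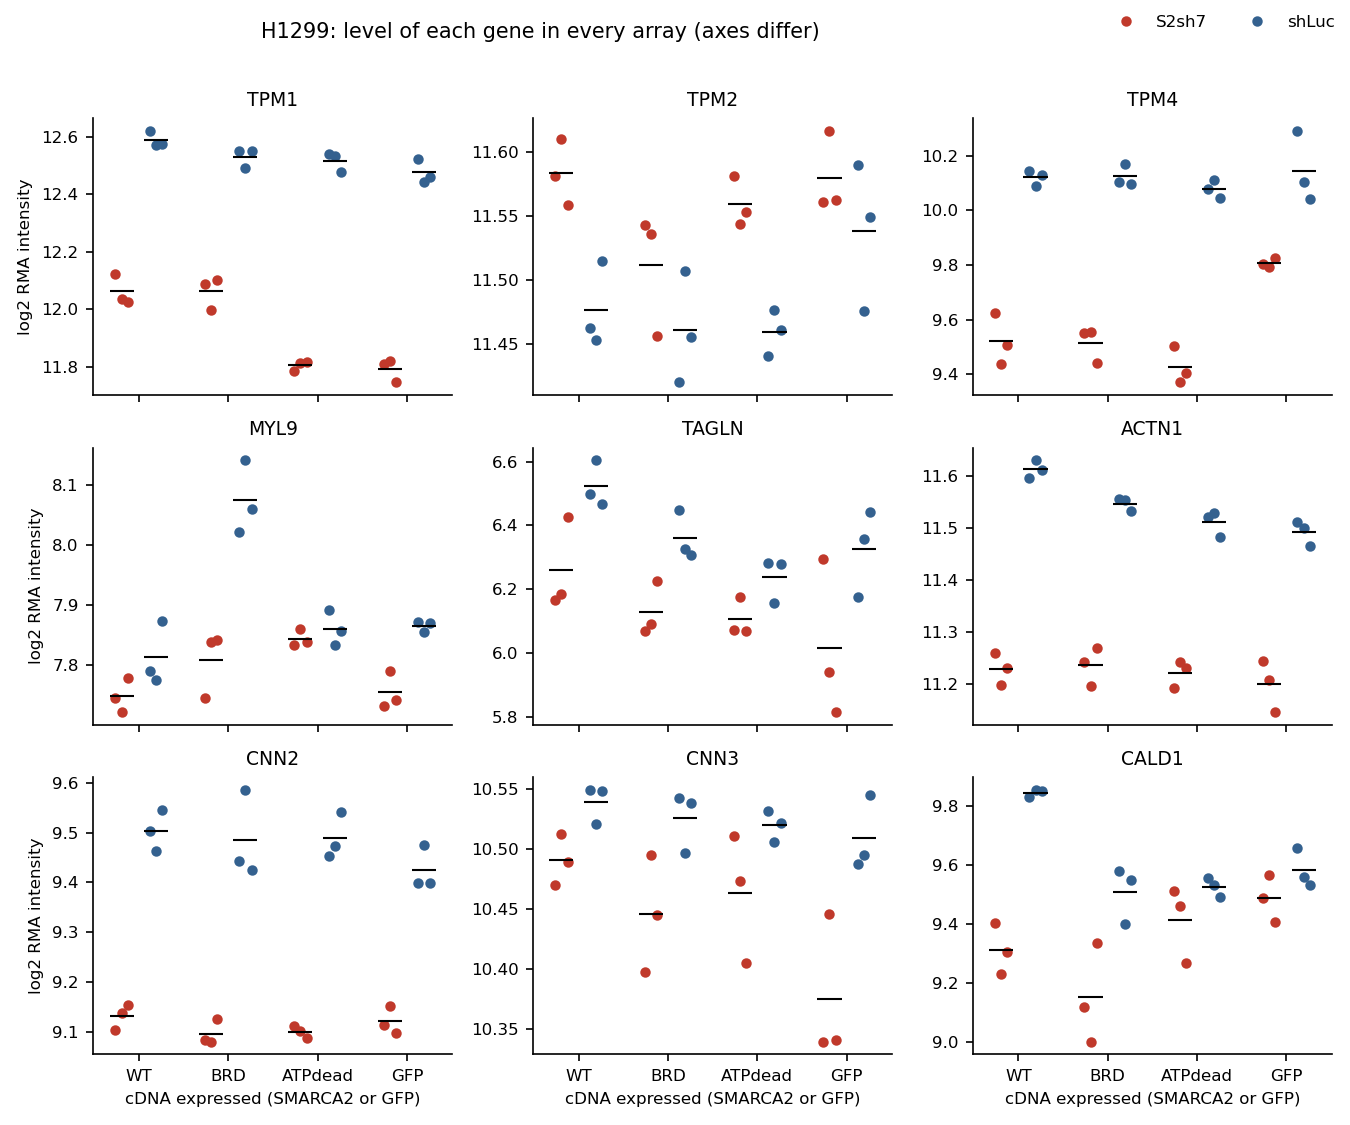
Log2 RMA intensity of each of the 9 genes on the 24 H1299 arrays (vertical axes, which differ between genes and do not start at 0), by cDNA, with S2sh7 in red left of shLuc in blue; points are arrays and short lines group means. TPM1, TPM4, ACTN1 and CNN2 are lower under S2sh7 with every cDNA, and TPM2 is not.

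TPM4, a non-muscle tropomyosin, had 894.4, 886.3 and 907.9 under S2sh7 and 1253, 1100 and 1054 under shLuc in GFP cells. Here too the arrays did not overlap, although shLuc replicate 1 was above the other shLuc arrays. The log2 difference was -0.34 (SE 0.056, adjusted p = 0.000105), or 79.1% of the shLuc level. With WT the arrays read 789.3, 692.7 and 728.5 under S2sh7 and 1131, 1090 and 1121 under shLuc. With BRD they read 749.6, 751.1 and 694.5 under S2sh7 and 1100, 1152 and 1096 under shLuc. The S2sh7 arrays of both cDNAs lay below every S2sh7 array with GFP. With ATPdead they read 726.5, 661.6 and 677.7 under S2sh7 and 1080, 1107 and 1057 under shLuc. That gap was the largest of the 4 for TPM4, at 63.6% of shLuc (adjusted p = 2.78e-08, limma), while WT gave 66.1% and BRD 65.5%.

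TPM2, the third tropomyosin measured, did not fall with any cDNA by its brightest probe set, but a dimmer one, 229911_at, fell with GFP (log2 difference -0.34, adjusted p = 0.0116) and 227397_at gave -0.19 there (adjusted p = 0.211, limma). The values that follow are those of the brightest. In GFP cells it had 3021, 3140 and 3024 under S2sh7 and 3082, 2848 and 2996 under shLuc, which overlap (log2 difference 0.04, adjusted p = 0.379). With WT it had 3065, 3126 and 3017 under S2sh7 and 2821, 2803 and 2926 under shLuc, with no overlap, and rose by 0.11 on the log2 scale (adjusted p = 0.0225, limma). With ATPdead it rose by 0.10 (adjusted p = 0.0299) and with BRD it differed by 0.05 (adjusted p = 0.302). With the mean of all TPM2 probe sets the difference with ATPdead turned to -0.018. The call with WT ended without shLuc WT replicate 1 or 2 or S2sh7 WT replicate 2 (adjusted p = 0.0736, 0.0849 and 0.0885). The call with ATPdead ended without S2sh7 ATPdead replicate 1 or 3 or shLuc ATPdead replicate 1 or 3 (adjusted p = 0.0978, 0.0553, 0.0988 and 0.0675).

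ACTN1, which crosslinks filaments in stress fibres and at focal adhesions, had 2425, 2367 and 2268 under S2sh7 and 2922, 2896 and 2828 under shLuc in GFP cells. The groups did not overlap with this or any other cDNA. Its log2 difference was -0.29 (SE 0.029, adjusted p = 1.77e-07), a level of 81.6% of shLuc. With WT it had 2453, 2352 and 2404 under S2sh7 and 3098, 3170 and 3129 under shLuc, where the shLuc arrays were the highest of the line. The difference was -0.38 with WT (adjusted p = 6.6e-09), -0.31 with BRD (adjusted p = 1.3e-07) and -0.29 with ATPdead (adjusted p = 2.56e-07, limma).

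CNN2, a calponin also found outside muscle, had 554, 569 and 547.5 under S2sh7 and 675.1, 711.5 and 675.1 under shLuc in GFP cells. Every S2sh7 array was lower, as with each other cDNA. The log2 difference was -0.30 with GFP (81.0% of shLuc, adjusted p = 4.55e-06), -0.37 with WT, -0.39 with BRD and -0.39 with ATPdead (76.4% of shLuc), all called by limma. CNN2 has a single probe set on the array, of the Affymetrix class marked x, whose probes may also match other transcripts.

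CNN3, the acidic calponin, was called with GFP, where it had 1296, 1394 and 1297 under S2sh7 and 1436, 1443 and 1494 under shLuc. These groups did not overlap, and the log2 difference was -0.13 (adjusted p = 0.00486). With WT, BRD and ATPdead its differences were -0.05, -0.08 and -0.06 and missed the threshold, but none was shown to differ from that with GFP (adjusted p = 0.428, 0.797 and 0.562). The other CNN3 probe set gave -0.14 with WT, -0.16 with BRD and -0.01 with GFP. Of the 2 probe sets, 1 was called lower with WT and 1 with BRD. MYL9, the light chain through which myosin II is activated, had 212.6, 221.2 and 213.8 under S2sh7 and 234.1, 231.4 and 233.9 under shLuc in GFP cells, a log2 difference of -0.11 (adjusted p = 0.0206). Its arrays did not overlap, but the call ended without S2sh7 GFP replicate 1 or 3 or shLuc GFP replicate 1 or 3 (adjusted p = 0.0753, 0.063, 0.0593 and 0.0549).

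MYL9 fell most with BRD, where it had 214.5, 228.7 and 229.2 under S2sh7 and 259.9, 282.2 and 266.8 under shLuc. The shLuc BRD arrays were above every other MYL9 array of the line, and the S2sh7 level was 83.1% of theirs (log2 difference -0.27, adjusted p = 1.1e-05, limma). TAGLN, an actin-bundling protein abundant in smooth muscle, had 78.5, 61.48 and 56.36 under S2sh7 and 72.4, 81.99 and 86.94 under shLuc in GFP cells. Its groups overlapped, because S2sh7 replicate 1 was above shLuc replicate 1. The difference was called (log2 -0.31, SE 0.097, adjusted p = 0.0208), but not without S2sh7 GFP replicate 2 or 3 or shLuc GFP replicate 2 or 3 (adjusted p = 0.0754, 0.134, 0.0588 and 0.0986). With WT, BRD and ATPdead TAGLN differed by -0.26, -0.23 and -0.13 (adjusted p = 0.0502, 0.0921 and 0.352).

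CALD1, which encodes caldesmon, was called lower with WT and BRD. With WT it had 676.4, 600.4 and 632.5 under S2sh7 and 910.7, 925.7 and 922.9 under shLuc. These groups lay well apart, and the gene fell to 69.1% of shLuc (log2 difference -0.53, adjusted p = 2.15e-05, limma). With BRD it had 554.8, 512 and 646 under S2sh7 and 764.3, 674.7 and 748.2 under shLuc, again without overlap (78.1% of shLuc, adjusted p = 0.00146). With GFP it had 717.4, 757.9 and 678.6 under S2sh7 and 807.8, 754.4 and 740.4 under shLuc, which overlap (log2 difference -0.10, adjusted p = 0.36). With ATPdead it had 730.4, 703.9 and 616.2 under S2sh7 and 751.9, 739.4 and 719.3 under shLuc, which also overlap (-0.11, adjusted p = 0.309). The highest CALD1 arrays of the line were the 3 with shLuc and WT.

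Counted by cDNA, 5 of the 9 genes fell and 1 (TPM2) rose with WT, against 11.6% of all genes lower and 14.9% higher. With BRD 6 fell and none rose, against 12.7% and 11.1% of all genes. With ATPdead 4 fell and 1 (TPM2) rose, against 11.9% and 16.5%. The medians of the 9 were -0.37, -0.31 and -0.13 on the log2 scale, beside 0.02, 0.01 and 0.02 over all genes. The 4 genes called lower with every cDNA, TPM1, TPM4, ACTN1 and CNN2, kept those calls without any single array of the groups compared. With the arrays compared alone, the calls of CNN3, MYL9 and TAGLN with GFP (adjusted p = 0.0671, 0.0552 and 0.138) and of TPM2 with WT and ATPdead (adjusted p = 0.0749 and 0.0612) ended. All 3 S2sh7 arrays lay below all 3 shLuc arrays for 6 of the 9 genes with GFP, 7 with WT, 8 with BRD and 4 with ATPdead, against 21.4%, 17.2%, 17.8% and 17.3% of all genes.

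**Figure D2:**
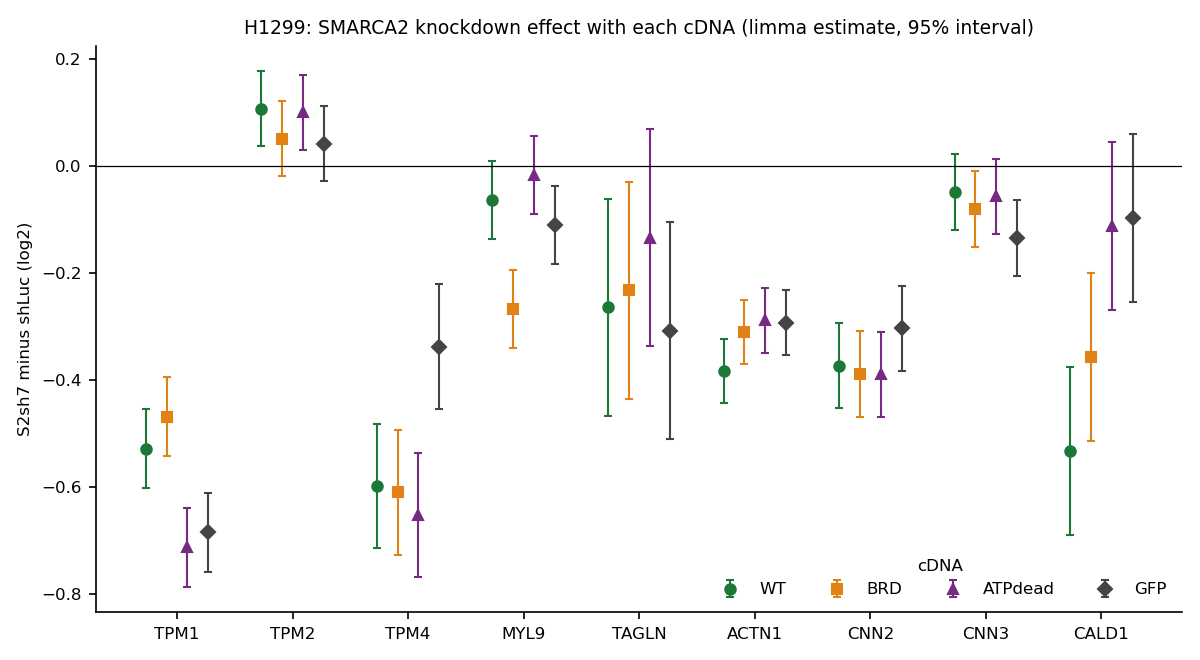
Log2 difference S2sh7 minus shLuc in H1299 cells for each gene and cDNA, as limma's estimate with its 95% interval; the horizontal line marks no difference and each cDNA has its own colour and symbol. TPM1 lies at -0.68 with GFP and -0.71 with ATPdead, against -0.53 with WT and -0.47 with BRD.

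The GFP arrays are shared by the comparisons that ask whether the response to S2sh7 depended on the cDNA. CALD1 was the single member whose response differed between WT and GFP (log2 difference of differences -0.44, SE 0.106, adjusted p = 0.035, limma), against 0.456% of all genes called lower and 1.82% called higher. Its call ended on leaving out any 1 of 10 of the 12 arrays (-0.40 to -0.47, adjusted p = 0.0503 to 0.0918), the exceptions being S2sh7 WT replicate 1 and S2sh7 GFP replicate 3. Of the 6 tested CALD1 probe sets, 1 was called (all 6 at -0.48 to -0.28). TPM1 differed by 0.16 (adjusted p = 0.12) and TPM4 by -0.26 (adjusted p = 0.096) and neither passed. Of the 5 tested TPM1 probe sets, however, 2 were called higher for WT minus GFP (all 5 at 0.16 to 0.44) and 2 for BRD minus GFP (0.14 to 0.28). With BRD no member was called by limma, against 0.558% of all genes either way, and 4 were under an unadjusted p of 0.05; the nearest was TPM1, at 0.22 with a 95% interval of 0.11 to 0.32 (adjusted p = 0.058). With ATPdead none was called, against 0.0612%, and 1 was under an unadjusted p of 0.05, TPM4 at -0.31 (adjusted p = 0.17).

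In cells that carried S2sh7, WT and BRD raised TPM1 and lowered TPM4 relative to GFP, and ATPdead lowered TPM4. TPM1 averaged 4279 ± 158 with WT, 4282 ± 168 with BRD and 3580 ± 44.6 with ATPdead, against 3548 ± 99.6 with GFP (SD, n = 3 each). The WT and BRD arrays were all above the ATPdead and GFP arrays. Against GFP, TPM1 rose to 120.6% with WT (log2 0.27, adjusted p = 5.86e-05) and to 120.7% with BRD (log2 0.27, adjusted p = 6.84e-05), while ATPdead gave 0.01 (adjusted p = 0.922). Set directly against WT, ATPdead lowered TPM1 to 83.7% (log2 -0.26, adjusted p = 0.000226), against 1.41% of all genes called lower and 1.61% higher, whereas BRD gave 0.00 with a 95% interval of -0.07 to 0.07. The TPM1 calls ended when limma was fitted to the arrays compared alone, at an adjusted p of 0.055 for WT and 0.0609 for BRD against GFP and 0.0932 for ATPdead against WT. The SMARCA2 cDNA signal under S2sh7 was also lower with ATPdead than with WT (56.7 and 76.7), and its part in that TPM1 difference was not tested. In the comparison of BRD with WT no member was called by limma, against 0.0612% of all genes, and 2 were under an unadjusted p of 0.05.

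TPM4 was lower with all 3 cDNAs under S2sh7. Its log2 difference from GFP was -0.28 with WT (adjusted p = 0.00379), -0.29 with BRD (adjusted p = 0.00275) and -0.38 with ATPdead (adjusted p = 0.00288). No array of the 3 cDNAs reached the lowest GFP array. With the arrays compared alone the call remained with BRD (adjusted p = 0.0433) and ended with WT (adjusted p = 0.0823) and ATPdead (adjusted p = 0.229). CALD1 fell with BRD (log2 -0.34, adjusted p = 0.00996), a call that ended without S2sh7 BRD replicate 2 (log2 -0.26, adjusted p = 0.0673) and with the arrays compared alone (adjusted p = 0.174). Thus 2 members were called with WT, 3 with BRD and 1 with ATPdead. The background was 1.7% lower and 3.35% higher with WT, 2.06% and 3.32% with BRD, and 0.333% and 0.47% with ATPdead.

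Under shLuc, where endogenous SMARCA2 was present, the cDNAs changed few members. MYL9 rose with BRD to 115.6% of GFP (log2 0.21, adjusted p = 0.00453, limma), against 0.864% of all genes called higher and 0.504% lower, a call that ended with the arrays compared alone (adjusted p = 0.185). ACTN1 was higher with WT (log2 0.12, adjusted p = 0.0293), against 0.925% of all genes called higher and 1.82% lower, but that call ended without any 1 of the 6 arrays (0.11 to 0.13; adjusted p = 0.0614 to 0.127). With ATPdead none was called, against 0.122% either way, and 1 was under an unadjusted p of 0.05. In order of mean intensity TPM1 ran 6169 (WT), 5923 (BRD), 5864 (ATPdead) and 5703 (GFP) under shLuc, and no cDNA was called against GFP there (adjusted p = 0.0966, 0.567 and 0.675, limma). Every WT array was above every GFP array, however, and 1 of 5 tested TPM1 probe sets was called higher with WT. Neighbours in that order overlapped except for WT, whose lowest array was above the highest BRD array.

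In A549 under the same hairpin TPM1 and TAGLN fell, as they did in H1299 with GFP, and TPM4 rose. Each group was 1 array, so the 4 pairs of arrays with the same cDNA were compared in an additive fit. It had 3 residual degrees of freedom, and a departure of any pair from the common shift counts as error. In simulated data it recovered 0% of planted log2 changes of 0.25, against 55% for the H1299 knockdown with GFP. Genes not called in A549 may therefore have changed by that much. TPM1 had 5030, 3704, 4457 and 3965 under S2sh7 with WT, BRD, ATPdead and GFP, against 5701, 5673, 5627 and 5389 under shLuc. All 4 S2sh7 arrays were below all 4 shLuc arrays. The fitted log2 difference was -0.39 (SE 0.084, adjusted p = 0.0346), or 76.1% of shLuc.

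TAGLN had 93.4, 78.0, 78.1 and 71.7 under S2sh7 with WT, BRD, ATPdead and GFP, against 107, 101, 101 and 98.0 under shLuc. All S2sh7 arrays were lower again (log2 -0.35, SE 0.062, adjusted p = 0.0269, or 78.7% of shLuc). TPM4 had 807, 617, 1243 and 1472 under S2sh7 with WT, BRD, ATPdead and GFP, against 565, 518, 495 and 610 under shLuc. Here all S2sh7 arrays were higher, and the 2 highest were those with ATPdead and GFP. The fit gave 0.84 (SE 0.208, adjusted p = 0.0459), or 179.1% of shLuc.

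Of the 9 genes, 2 fell and 1 rose in A549, against 9.06% of all genes called lower and 12% called higher, and 4 were under an unadjusted p of 0.05. The median of the 9 was 0.02 on the log2 scale, beside 0.01 over all genes. These 3 calls rested on all 4 pairs. TPM1 was not called without the WT, BRD, ATPdead or GFP pair (adjusted p = 0.0592, 0.0665, 0.125 and 0.127), nor was TAGLN (adjusted p = 0.0562, 0.0605, 0.117 and 0.107). TPM4 kept its call without the BRD pair and lost it without the WT, ATPdead or GFP pair (adjusted p = 0.0817, 0.154 and 0.149). The remaining genes gave 0.30 for TPM2 (adjusted p = 0.228), -0.29 for CNN3 (adjusted p = 0.0573), 0.11 for CALD1, -0.06 for CNN2 and 0.02 for ACTN1. MYL9 was under the filter level of log2 5 on all 8 A549 arrays (23.6 to 27.1), with a fitted difference of 0.03 (adjusted p = 0.764).

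**Figure D3:**
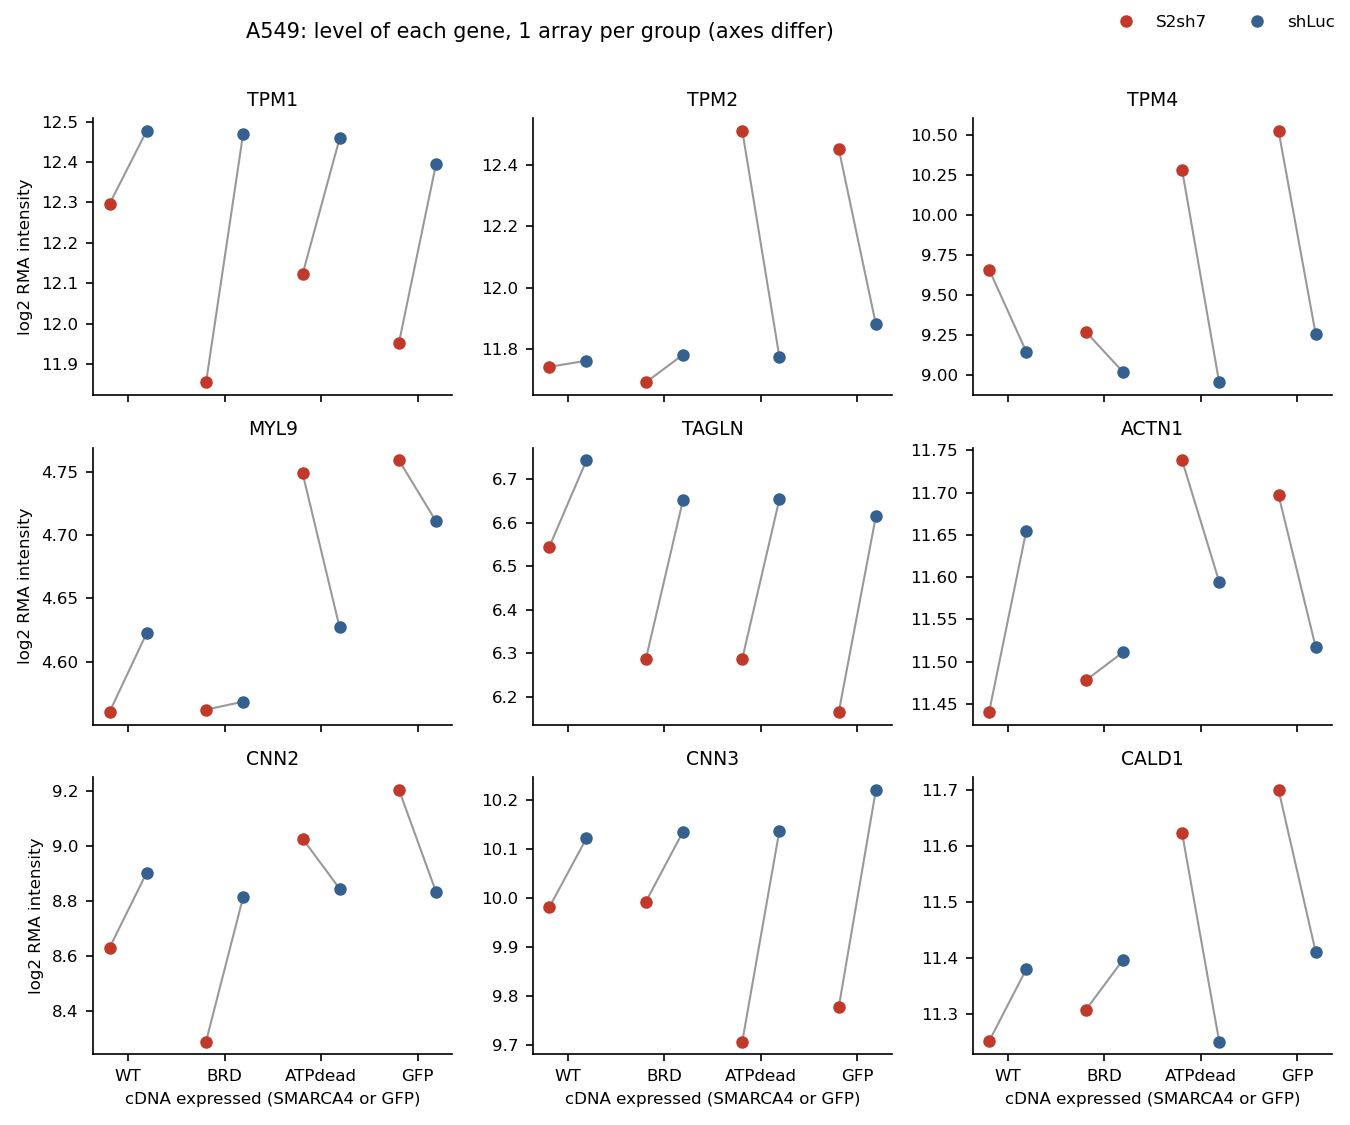
Log2 RMA intensity of the 9 genes on the 8 A549 arrays (vertical axes, which differ between genes and do not start at 0), 1 array for each shRNA and SMARCA4 cDNA or GFP, with S2sh7 in red left of shLuc in blue and each pair joined. TPM4 and TPM2 are highest on the S2sh7 arrays with ATPdead and GFP, and TPM1 and TAGLN are lower under S2sh7 in every pair.

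In A549, TPM2, TPM4, CNN2 and CALD1 separated the pairs by whether the cDNA carried a working ATPase, CNN3 did so in the opposite direction, and TPM1 did not. TPM2 had 3422, 3303, 5843 and 5606 under S2sh7 with WT, BRD, ATPdead and GFP, against 3470, 3517, 3498 and 3769 under shLuc. CNN2 had 397, 313, 522 and 590 under S2sh7 in the same order of cDNAs, against 479, 451, 460 and 456 under shLuc. CALD1 had 2437, 2532, 3155 and 3329 under S2sh7, against 2664, 2694, 2436 and 2723 under shLuc. In all 3 genes the S2sh7 arrays with ATPdead and GFP were above the shLuc arrays of their pair, and those with WT and BRD below.

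For TPM2 the log2 difference S2sh7 minus shLuc was -0.02 with WT and -0.09 with BRD, and 0.74 with ATPdead and 0.57 with GFP. For TPM4 it was 0.51 with WT and 0.25 with BRD, and 1.33 with ATPdead and 1.27 with GFP. For CNN2 it was -0.27 with WT and -0.53 with BRD, and 0.18 with ATPdead and 0.37 with GFP. In these genes the pairs with WT or BRD were all below the pairs with ATPdead or GFP. TPM1 gave -0.18 with WT and -0.62 with BRD, and -0.34 with ATPdead and -0.44 with GFP, so its classes overlapped. TAGLN gave -0.37 with both BRD and ATPdead, so its classes met.

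CNN3 had 1011, 1018, 836 and 877 under S2sh7 with WT, BRD, ATPdead and GFP, against 1115, 1125, 1127 and 1194 under shLuc, so that it was lower under S2sh7 in every pair and lowest with ATPdead and GFP. ACTN1 had 2779, 2852, 3416 and 3320 under S2sh7, against 3224, 2918, 3093 and 2931 under shLuc, so its hairpin groups overlapped. Its pairs gave -0.21 with WT and -0.03 with BRD, and 0.14 with ATPdead and 0.18 with GFP. The ACTN1 classes thus did not overlap, although the class difference was not called. The interaction of shRNA with this class was fitted with arrays of different cDNAs standing in for replicates within a class. That fit had no term for the cDNA, so it did not use the pairing of arrays, and had 4 residual degrees of freedom. It was -0.71 for TPM2 (mean change -0.06 with a working ATPase and 0.66 without, adjusted p = 0.00109). It was -0.92 for TPM4 (0.38 and 1.30, adjusted p = 0.018), -0.68 for CNN2 (-0.40 and 0.28, adjusted p = 0.0185) and -0.44 for CALD1 (-0.11 and 0.33, adjusted p = 0.0157). CNN3 ran the other way, at 0.30 (-0.14 and -0.44, adjusted p = 0.037). In all, 4 of the 9 were called lower and 1 higher, against 11.9% and 12% of all genes, and the median of the 9 was -0.29 beside 0.00 over all genes. ACTN1 gave -0.29 (adjusted p = 0.068), TAGLN 0.13 and TPM1 -0.01, none called.

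TPM2 kept its class call without any of the 4 pairs. TPM4 lost it without the BRD, ATPdead or GFP pair (adjusted p = 0.0952, 0.0569 and 0.0529), and CNN2 without the same 3 (adjusted p = 0.0692, 0.0612 and 0.129). CALD1 lost it without the WT, BRD or ATPdead pair (adjusted p = 0.12, 0.105 and 0.056) and CNN3 without the WT, BRD, ATPdead or GFP pair (adjusted p = 0.18, 0.181, 0.102 and 0.119). For the SMARCA4 cDNAs against GFP over both hairpins limma called no gene at all, neither a member nor any other (0% either way for each cDNA). At an unadjusted p under 0.05 there was 1 member with WT, 1 with BRD and 0 with ATPdead, and 543, 803 and 281 of all genes.

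**Figure D4:**
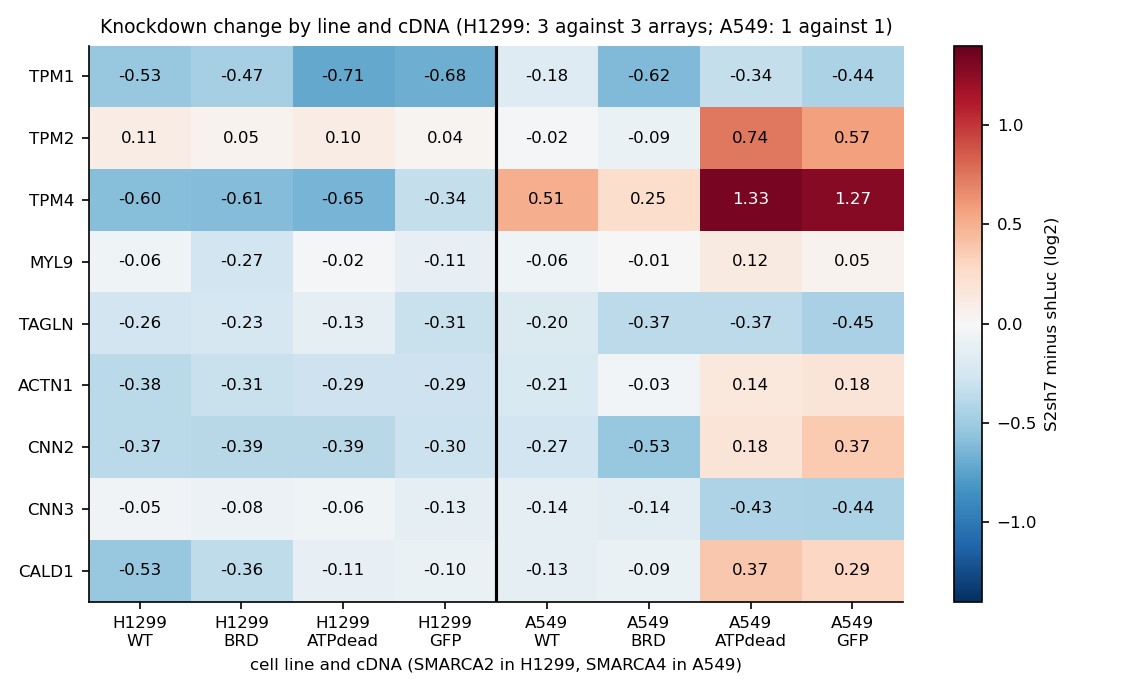
Heat map of the log2 difference S2sh7 minus shLuc for each gene, by cDNA, in H1299 (SMARCA2 cDNAs, group means of 3 arrays) and A549 (SMARCA4 cDNAs, single pairs). TPM1 is negative in all 8 columns, while TPM4 is negative in the 4 H1299 columns and positive in the 4 A549 columns.

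Probe sets of one gene read different stretches of its transcripts and did not always move together. All 5 tested TPM1 probe sets fell in H1299 with GFP, with log2 differences of -0.68 to -1.05, and in A549, with -0.39 to -0.74. They differed in the class comparison of A549: 206117_at gave 0.43 (adjusted p = 0.042) and the dim 238688_at 0.77 (adjusted p = 0.0041), against -0.01 for the brightest, 210986_s_at. The 3 bright TPM4 probe sets gave -0.34, -0.44 and -0.47 in H1299 with GFP, and 0.84, 0.84 and 0.55 in A549, where the rise was called in 1 of 4 tested probe sets. The 4 TPM2 probe sets ran from -0.34 to 0.04 in H1299 with GFP, with 1 called lower, and from -0.22 to 0.30 in A549. The A549 class call was made in 1 of 4 tested probe sets for TPM2, 2 of 4 for TPM4 and 1 of 6 for CALD1, whose 6 ran from -0.47 to 0.30. For CNN3 it was made in 0 of 2 once all probe sets were fitted together (0.23 to 0.30). For TAGLN, 205547_s_at fell in both lines (-0.51 with GFP in H1299 and -0.55 in A549, both log2) while 226523_at gave -0.11 and -0.04. CALD1's brightest probe set gave -0.10 with GFP in H1299 and 4 others were called lower, at -0.19 to -0.30. All 5 of these were called lower with WT, at -0.48 to -0.77.

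**Figure D5:**
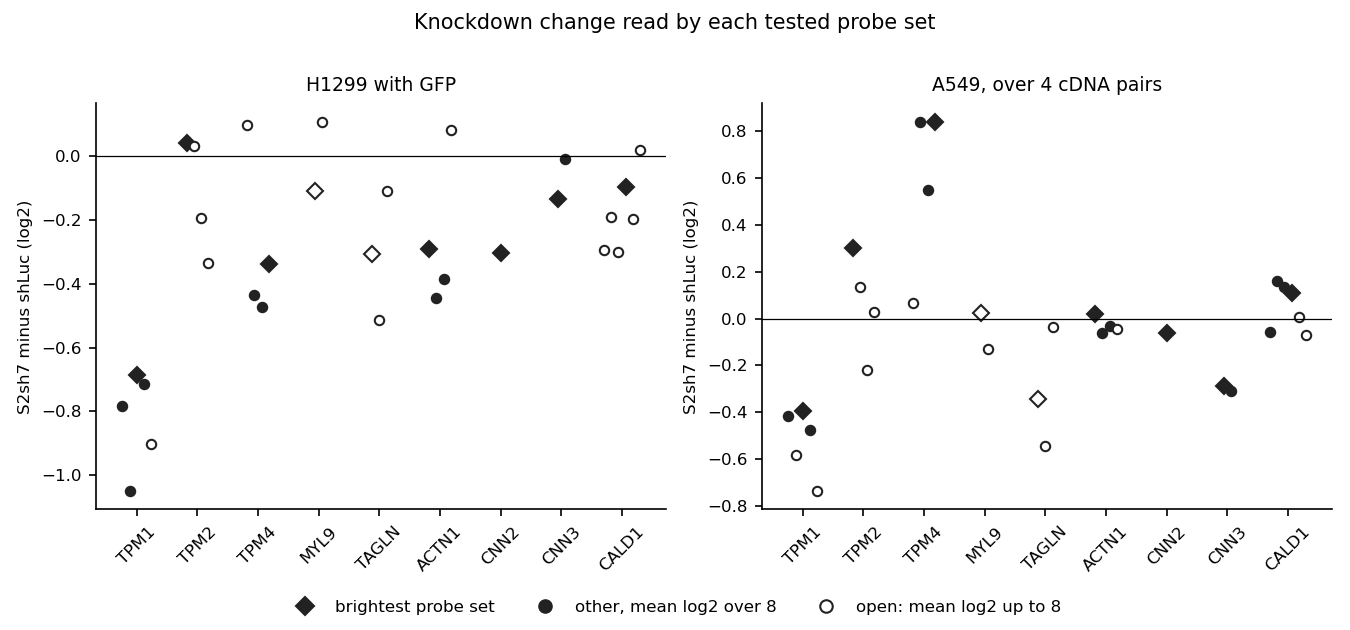
Log2 difference S2sh7 minus shLuc of every tested probe set of the 9 genes, in H1299 with GFP on the left and A549 on the right; diamonds mark the brightest probe set and open symbols those with a mean log2 level of at most 8. TPM1 probe sets lie between -0.68 and -1.05 on the left and between -0.39 and -0.74 on the right.

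Over the 8 group means of a line, which share arrays and hairpins, 28 of the 36 pairs of members correlated positively in H1299 and 19 in A549. All 8 pairs with TPM2 were negative in H1299. TPM1 and TAGLN correlated at 0.87 in H1299 and 0.94 in A549, whereas TPM1 and TPM4 gave 0.85 and -0.63. TPM2 and CALD1 gave -0.39 in H1299 and 0.94 in A549. Over all 16 group means, each line centred on its own mean, the genes most like TPM1 were LETM2 (r = 0.97), SMAD7 (0.96), FSTL1 (0.96) and COL16A1 (0.95). Those most like TAGLN were HDAC7 (0.94), PLAU (0.93), EPAS1 (0.93) and MTCL1 (0.93).

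The background for the lists that follow is 16.1% of all genes called lower and 13.6% called higher in H1299 with GFP, and 9.06% and 12% in A549. These lists too were chosen with earlier results of these data known, so their counts are descriptive. Among close relatives of the members, 3 of 5 tested fell in H1299 with GFP (median log2 change -0.32). They were TAGLN2 (-0.60), ACTN2 (-0.34) and ACTN4 (-0.32), the last a non-muscle alpha-actinin. In A549 limma called none of the 5, with 2 under an unadjusted p of 0.05. Of 4 actins tested, 1 fell in H1299 with GFP, ACTB at -0.12 (adjusted p = 0.0022), and none was called in A549, with 1 under an unadjusted p of 0.05. TPM3, the other tropomyosin gene, was not analysed here.

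Of 25 focal adhesion and LIM-domain proteins, 13 fell and 2 rose in H1299 with GFP (median -0.13). The largest were TGFB1I1, a focal adhesion scaffold also called Hic-5 (-0.56), CSRP1 (-0.47), the fibronectin receptor subunit ITGA5 (-0.40) and PARVA (-0.37). In A549, 4 fell and 1 rose (median -0.04), led by PDLIM1 (-1.05), PDLIM5 (-0.52), PDLIM2 (0.51) and LPP (-0.48). Of 20 genes for non-muscle myosin and its regulators, 4 fell and 3 rose in H1299 with GFP (median 0.01), among them the cofilin kinase LIMK1 (-0.35), the myosin phosphatase subunit PPP1R12A (-0.19), CFL2 (-0.16) and the light chain MYL12B (0.14). That count is near the background. In A549, 1 fell and 6 rose (median 0.14), with MYL12B at 0.96, MYLK, the light chain kinase, at -0.94, MYL12A at 0.62 and PPP1R12A at 0.45.

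SRF and its cofactors were not called in either line by limma, with 1 of 3 under an unadjusted p of 0.05 in each. In H1299 with GFP SRF gave -0.13 (adjusted p = 0.052), MRTFA -0.07 and MRTFB -0.10. In A549 SRF gave 0.35 (adjusted p = 0.071), MRTFA -0.02 and MRTFB 0.19. MYOCD, the smooth muscle cofactor, was too dim to test, at log2 3.18 to 3.74 in H1299 and 4.62 to 5.17 in A549.

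Markers of other cell types gave the following. The summed intensity of 8 smooth muscle markers was 278 to 304 under S2sh7 and 256 to 305 under shLuc in H1299, and 826 to 857 and 759 to 859 in A549. Under each hairpin, 4 of the 8 were over log2 5 on all H1299 arrays and 6 on all A549 arrays. The lowest array median of A549 was 40.1, above the highest of H1299, which was 27.3. Counts over a fixed level and summed intensities, here and for the other markers, therefore cannot be compared between lines. ACTA2 reached log2 8.79 to 9.11 in A549, while CNN1 was under log2 5 on every array. Fibroblast markers summed to 206 to 258 under S2sh7 and 211 to 241 under shLuc in H1299, and to 544 to 559 and 540 to 585 in A549. The summed intensity of the 6 epithelial markers was 6412 to 7626 under S2sh7 and 9334 to 10031 under shLuc in H1299. In A549 it was 19503 to 20147 and 28061 to 31963. The brightest genes weigh most in such a sum, and the 6 did not all move. In A549 KRT7 stayed at log2 12.43 to 12.63 on every array. In H1299 KRT19, EPCAM and CDH1 were under log2 5 on every array, and KRT8 gave -0.81, KRT18 -0.56 and KRT7 -1.30 with GFP. Leukocyte markers summed to 52 to 60 under S2sh7 and 52 to 62 under shLuc in H1299, and to 110 to 159 and 170 to 210 in A549, where CD14 gave -1.13. Endothelial markers summed to 84.7 to 103 and 88.4 to 97.5 in H1299, and to 144 to 156 and 149 to 166 in A549. The part of the keratin and CD14 differences in the results above was not tested.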

How the data were processed

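Total RNA, extracted with Trizol per the labels' protocols, was amplified with a 3′ IVT kit, biotinylated and read on 32 Affymetrix HG-U133 Plus 2.0 arrays. The deposited values are linear expression intensities. The submitters' processing notes name RMA and limma, whose versions are not given in the sources used here. Log2 was taken with no pseudocount, although log2 values had been assumed in the design. No genome build is given for the values, and RefSeq promoter windows are from GRCh38.p14. Lines were fitted separately because array medians differed, at 26.4 to 27.3 (H1299) and 40.1 to 41.2 (A549).

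The array holds 54675 probe sets. A single symbol was given for 41097 of them, more than 1 for 1801, and no symbol for 11777. A gene was its brightest probe set over all arrays, and was tested if above log2 5 on at least 3 arrays. limma 3.58.1 in R 4.3.3 (lmFit, eBayes) was fitted to all 14695 genes, with 8 group means for H1299 and cDNA plus shRNA for A549, or shRNA by ATPase class, over 20 comparisons (15 in H1299, 5 in A549). Benjamini-Hochberg adjustment ran over all genes, and called means an adjusted p under 0.05. Scripts were tested on simulated data, figures drawn with matplotlib 3.10.9. All members are described; of the other lists (actins, myosin and its regulators, paralogs, focal adhesion and LIM proteins, SRF and cofactors, and cell type markers), the up to 4 called genes with the largest change are named, SRF and its cofactors always. The 4 genes most correlated with TPM1 and TAGLN over 16 group means are named; those for MYL9 were left out, as MYL9 was under the filter level in A549. Members and lists were chosen with earlier results of these data known. Alternatives were the mean of probe sets, quantile normalization, centring, other filters, trended variance, array weights, fewer arrays, the replicate number as a block, and leaving out each array or pair.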

Additional observations from a re-analysis of the deposited data

Results flagged for a closer look

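CALD1 was called as responding differently to S2sh7 in H1299 cells with WT SMARCA2 than with GFP (interaction -0.436 on the log2 scale, adjusted p = 0.035, limma). The call ended without most single arrays, as given above, and was made in 1 of 6 tested probe sets (-0.48 to -0.28). The S2sh7 arrays averaged 636 and the shLuc arrays 920 with WT, against 718 and 768 with GFP.

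In A549 the response to S2sh7 differed between cells with an ATPase-competent SMARCA4 cDNA (WT, BRD) and those without (ATPdead, GFP) for TPM2 (-0.712), TPM4 (-0.917), CNN2 (-0.676), CALD1 (-0.441) and CNN3 (0.295), by limma's interaction term with arrays of different cDNAs in place of replicates. SMARCA4 cDNA intensity also differed between hairpins, at 236 under S2sh7 and 99.8 under shLuc with WT, and its part in these differences was not tested.

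TPM4 moved in opposite directions in the lines. It was higher under S2sh7 in all 4 A549 pairs (mean log2 difference 0.841) and lower on every S2sh7 array of H1299 with each cDNA. The difference between lines was not tested, and line and batch cannot be told apart in it. With the SMARCA2 and SMARCA4 cDNAs the gene encoded by the cDNA cannot be told apart from them either. With GFP, the same cDNA in both lines, TPM4 gave -0.34 in H1299 and 1.27 in the single A549 pair.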

How the results depend on the processing

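The H1299 knockdown calls of TPM1, TPM4, ACTN1 and CNN2 kept direction and significance without any single array of the groups compared. Members called without 1 array or pair ranged from 5 to 6 with GFP (7 with all arrays), 5 to 7 with WT (6), 6 to 7 with BRD (6) and 4 to 5 with ATPdead (5). They ranged from 0 to 2 for WT minus GFP (1), 0 to 1 for BRD minus GFP (0), and were 0 for WT against GFP under shLuc (1). In A549 they ranged from 0 to 1 for the knockdown (3) and from 1 to 3 for the class comparison (5).

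Averaging a gene's probe sets, in place of taking the brightest, gave 2 members for WT minus GFP, 1 for WT against GFP under S2sh7 (2), 0 for BRD against GFP under shLuc (1), 2 for ATPdead against WT (1) and 2 for the A549 class comparison. It also turned TPM2 with ATPdead to -0.018. Fitting only the arrays compared gave 4 members with GFP, 0 for WT, 1 for BRD (3) and 0 for ATPdead (1) against GFP under S2sh7, 0 for WT and 0 for BRD under shLuc, and 0 for ATPdead against WT, with fewer residual degrees of freedom. WT minus GFP gave 0 with centred arrays, 0 with no filter and 3 with a trended, robust variance. BRD minus GFP gave 1 with repeated quantile normalization, 1 with the filter at log2 6, 1 with array weights and 2 with a trended, robust variance, and ATPdead minus GFP then gave 1. WT against GFP under shLuc gave 0 with centred arrays, 0 with no filter, 2 with the filter at log2 6, 2 with a trended, robust variance and 3 with array weights. The cause of these shifts was not tested.

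With the replicate number as a block, BRD minus GFP called 1 member (0 without), and the block moved no other count of members by over 1.5 times. Deviations of same-numbered arrays did not go together (84 pairs, median r -0.007, 12 over 0.1), so the numbers were not taken as pairs.

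Dim probe sets could go against the brightest: TPM4 1559989_at gave 0.096 with GFP, 0.067 with WT, 0.17 with BRD, 0.033 and 0.040 for WT and BRD against GFP under S2sh7, and 0.016 for the A549 class. ACTN1 237401_at gave 0.081 with GFP and 0.092 with BRD, MYL9 244149_at 0.11 with GFP, and TPM2 227397_at -0.086 with WT and -0.19 with ATPdead. CALD1 215198_s_at gave 0.16 for BRD against GFP under S2sh7 and 0.30 for the A549 class.

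Over all genes, the knockdown count in A549 was 3098 with all pairs and 8 to 1676 without a pair, and the class count 3506 and 1418 to 2277. In H1299 the knockdown with BRD gave 3486 and at least 2043, WT minus GFP 335 and 147 to 532, BRD minus GFP 82 and 19 to 180, and ATPdead minus GFP 9 and 2 to 50. Against GFP under S2sh7 the counts were 743 and 117 to 1099 with WT, 791 and 112 to 1133 with BRD, and 118 and 2 to 306 with ATPdead. Under shLuc they were 403 and 26 to 814, 201 and 1 to 451, and 18 and 0 to 239. BRD against WT gave 9 and 0 to 89, and ATPdead against WT 444 and 23 to 702. Repeated quantile normalization moved the split of lower and higher calls for WT minus GFP to 106 and 218 (67 and 268 in the reported fit), for WT against GFP under shLuc to 210 and 199 (267 and 136), for ATPdead against GFP under S2sh7 to 76 and 60 (49 and 69), and under shLuc to 13 and 12 (13 and 5). Centring moved the last 3 to 273 and 70, 22 and 55, and 6 and 1. Quantile normalization turned the balance of the knockdown calls with GFP to 2100 and 2547 (2360 and 1999) and with BRD to 1710 and 2173 (1860 and 1626). It also gave 3 and 3 for ATPdead minus GFP (2 and 7) and 16 and 4 for BRD against WT (9 and 0).

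Signal limits MYL9 in A549, where every array was under the filter level, and TAGLN, whose arrays were dim in both lines. In simulated data a planted log2 change of 0.5 was recovered for 95% of 200 genes in the H1299 knockdown with GFP, 76% for WT minus GFP, 61% in the A549 knockdown and 20.5% in the A549 class comparison. A planted change of 0.25 was recovered for 55%, 23.5%, 0% and 0% in the same order.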
